A study of Mus musculus with 12 samples.

Results

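Nos3, Edn1 and Ednrb are 3 genes by which endothelial cells set the tone of blood vessels. They were taken by gene symbol from the 4 comparison tables of the study, and are 3 of the 9338 genes that at least 1 table lists. Edn1 encodes the precursor of endothelin-1, a peptide that converting enzymes release and that constricts vessels by binding receptor A on smooth muscle. Ednrb encodes the endothelin receptor B, which endothelial cells carry and through which endothelin-1 is cleared and nitric oxide release is triggered. In the lung it is abundant in the capillary endothelium, above all in the cells called aerocytes. Nos3 encodes endothelial nitric oxide synthase, which makes the vasodilator nitric oxide from arginine.

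The RNA came from lung cells of 12 male mice on a C57Bl/6J background, all carrying TET2fl/fl, aged 30 weeks, with 3 mice and 3 libraries in each group. WT mice had no Cre and TET2 KO mice had Cdh5-CreERT2, a tamoxifen-inducible Cre under an endothelial promoter, so that other cells of the preparation keep Tet2. Both genotypes received 40 mg/kg tamoxifen daily for 3 days when 6 to 8 weeks old and then ate either chow (13% of energy as fat) or a high fat diet (HFD, 60%) for 20 weeks. Digested lung was selected with beads against CD31, an endothelial surface protein that some blood cells also carry, and between 36.7 M and 56.8 M reads per library were counted on genes. Tet2 itself was listed only for HFD against chow in WT, so the genotype of the libraries rests on their labels.

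Each table lists only the genes with an unadjusted DESeq2 p under 0.05 in the authors' test, and a gene has values only in the libraries of the tables that list it. Ednrb was listed for HFD against chow in WT and for the comparison of TET2 KO with WT on either diet, and so has values in all 12 libraries. Nos3 was not listed between the genotypes on HFD, which leaves it without a value in TET2 KO on HFD. Edn1 was not listed between the genotypes on chow, which leaves it without one in TET2 KO on chow. None of the 3 genes was listed for HFD against chow in TET2 KO, where 1628 genes were listed, 77% of them passed the test below, 29.3% rose and 47.7% fell. Of the genes the authors adjusted, the tables list 5.88% for TET2 KO against WT on chow, 30.2% for HFD against chow in WT, 19.2% for TET2 KO against WT on HFD and 7.6% for HFD against chow in TET2 KO. The counts were retested with the quasi-likelihood test of edgeR, and a gene is said to have passed the test, risen or fallen at an unadjusted edgeR p under 0.05, with no limit on the fold change. The study used such a threshold when it set diet beside genotype, and added a fold-change limit in its analysis of TET2 KO against WT. Adjusted p-values follow Benjamini and Hochberg, with the number of genes the authors adjusted as the number of tests. All of these p-values describe genes already selected for a difference, and an exact permutation test of 3 libraries against 3 goes no lower than p = 0.1.

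Edn1 (ENSMUSG00000021367) lies on the plus strand at chr13:42301476-42307990 of GRCm38, the build called mm10. Ednrb (ENSMUSG00000022122) lies on the minus strand at chr14:103814625-103844402, and Nos3 (ENSMUSG00000028978) on the plus strand at chr5:24364810-24384474. By the GENCODE M21 annotation, Nos3 shares 32.3% of its 4132 exonic bases with genes on the other strand, 1040 bases with the antisense gene Gm15587 and 294 with Atg9b. Edn1 shares 35 of 2139 exonic bases with the antisense gene Gm47118, and Ednrb shares none of its 4266. Whether counting used the strand, and how reads in those stretches were treated, is not given in the sources used here. Without the strand, reads of Nos3 and Edn1 there cannot be told apart from antisense reads, and they may have been left uncounted. By their own counts, Gm15587 and Gm47118 were far weaker than their partners. Gm15587 had 4 to 6 reads in the WT chow libraries and 18 to 37 in the WT HFD libraries, and Gm47118 had 0 to 5 and 16 to 57. These counts need not include reads from the shared stretches, and the level of Atg9b is not given here.

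The sequences before the starts of Edn1 and Ednrb are shown because both genes rose on HFD in WT, together with several transcription factors that are known to act on vascular promoters. They are RefSeq's 250 bases upstream of the start on GRCm38.p6, written 5′ to 3′ on the strand of the gene, with capitals at each match to CACCC or its complement GGGTG, the core of Krüppel-like factor sites. The Edn1 bases are chr13:42301226-42301475. The Ednrb bases are chr14:103843702-103843951, which lie inside the gene span given above, in an intron of its GENCODE transcript.

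Edn1: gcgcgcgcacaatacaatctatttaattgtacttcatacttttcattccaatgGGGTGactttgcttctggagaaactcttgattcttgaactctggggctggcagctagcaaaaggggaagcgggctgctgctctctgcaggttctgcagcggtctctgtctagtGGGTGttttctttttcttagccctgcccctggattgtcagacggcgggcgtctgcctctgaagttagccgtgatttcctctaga
Ednrb: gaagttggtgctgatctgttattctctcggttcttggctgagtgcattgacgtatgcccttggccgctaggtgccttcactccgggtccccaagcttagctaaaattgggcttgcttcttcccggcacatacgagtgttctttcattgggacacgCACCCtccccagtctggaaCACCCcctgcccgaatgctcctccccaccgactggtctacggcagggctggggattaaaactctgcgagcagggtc

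Counted from the start, the matches begin at -197 and -84 in Edn1, on the opposite strand, and at -95 and -76 in Ednrb. In the 50 bases after the start, 1 more match on the opposite strand begins at 34 in Edn1 and at 27 in Ednrb. CACCC was found on either strand in 57.5% of the 32851 RefSeq windows that run from 250 bases before to 50 after a start, so its presence in both genes is common. The GATA letters AGATAA, found in 11.2% of the windows, occurred once in Edn1, on the opposite strand as TTATCT at position 9 after the start, and not in the Ednrb window. The AP-1 letters TGANTCA, found in 7.8% of the windows, occurred in neither. The Edn1 match to the GATA letters is in capitals in the first 30 bases after the annotated start, chr13:42301476-42301505. Where transcription starts in these cells was not tested.

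Edn1 first exon: gccgggtcTTATCTctggctgcacgttgcc

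Per length, Ednrb and Edn1 were strong transcripts in these libraries and Nos3 a moderate one. Over the 6 WT libraries the mean level was 27.7 FPKM for Ednrb, 21.3 FPKM for Edn1 and 2.64 FPKM for Nos3. These levels were above 91.7%, 88.7% and 52.2% of the 7330 genes listed for HFD against chow in WT. The ratio of Edn1 to Nos3 FPKM, of constrictor precursor to vasodilator enzyme, was 7.57, 5.72 and 13.5 in the WT chow libraries and 10.2, 5.68 and 6.74 in the WT HFD libraries. The diets overlapped in this ratio, which averaged 8.93 ± 4.06 on chow and 7.52 ± 2.34 on HFD (SD, n = 3 each).

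**Figure D1:**
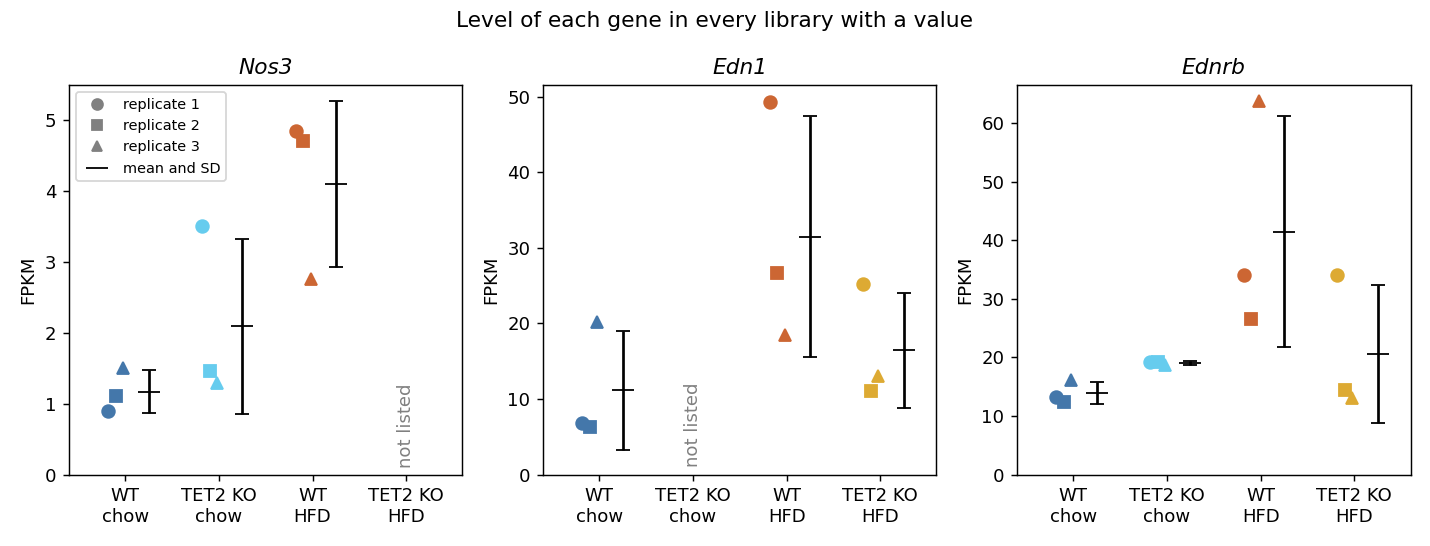
FPKM of Nos3, Edn1 and Ednrb (y axis) in every library with a value, by group (x axis), where the marker shape gives the replicate number and the bar beside each group the mean and SD. Nos3 and Ednrb lie apart between WT chow and WT HFD, while WT chow replicate 3 reaches 20.3 FPKM of Edn1, above WT HFD replicate 3 at 18.5.

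Edn1, the ligand, rose on HFD in WT mice with a wide spread on both diets. Its level was 6.77, 6.37 and 20.3 FPKM in the WT chow libraries (500 to 1690 reads), 49.3, 26.7 and 18.5 FPKM in the WT HFD libraries (1555 to 5985 reads) and 25.2, 11.1 and 13.1 FPKM in the TET2 KO HFD libraries (936 to 2257 reads). WT chow replicate 3 stood high in its group and overlapped with WT HFD replicate 3, and TET2 KO HFD replicate 1 overlapped with the WT HFD libraries. The means were 11.1 ± 7.91, 31.5 ± 15.9 and 16.5 ± 7.61 FPKM (SD, n = 3 each). For HFD against chow in WT the change was 2.84-fold, or 1.51 on the log2 scale (SE 0.55, adjusted p = 0.125), and it passed the test. It no longer passed without WT HFD replicate 1 (log2 fold change 1.03), without WT chow replicate 1 (1.25) or without WT chow replicate 2 (1.22). For TET2 KO against WT on HFD the log2 fold change was -0.93 (SE 0.43, adjusted p = 0.326), which did not pass. It passed without TET2 KO HFD replicate 1 (-1.38) and without WT HFD replicate 3 (-1.20), and was -0.45 without WT HFD replicate 1.

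Ednrb, the receptor, varied little between libraries on chow and widely on HFD. Its level was 13.3, 12.4 and 16.1 FPKM in WT chow and 19.3, 19.2 and 18.7 FPKM in TET2 KO chow. On HFD it was 34.0, 26.5 and 63.8 FPKM in WT and 34.1, 14.4 and 13.1 FPKM in TET2 KO. All TET2 KO chow libraries lay above all WT chow libraries, and all WT HFD libraries lay above both chow groups. On HFD, TET2 KO replicate 1 lay among the WT libraries while the other two were at the level of WT chow. The group means were 13.9 ± 1.94 (WT chow), 19.0 ± 0.320 (TET2 KO chow), 41.5 ± 19.7 (WT HFD) and 20.6 ± 11.8 FPKM (TET2 KO HFD; SD, n = 3 each). In this order of levels, TET2 KO chow and TET2 KO HFD did not differ beyond their spread.

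Ednrb rose 1.36-fold in TET2 KO against WT on chow, or 0.45 on the log2 scale (SE 0.14, adjusted p = 0.804), and without WT chow replicate 2 it no longer passed the test (log2 fold change 0.36). It rose 2.99-fold on HFD in WT, or 1.58 on the log2 scale (SE 0.32, adjusted p = 0.0435). Leaving out any 1 of the 6 libraries gave values from 1.12 to 1.82, and all 6 of those fits passed at the unadjusted threshold, while the adjusted p was under 0.05 in 1 of them (range 0.0429 to 0.153). For TET2 KO against WT on HFD the log2 fold change was -1.003 (SE 0.46, adjusted p = 0.317), which did not pass. It passed without TET2 KO HFD replicate 1 (-1.59) and without WT HFD replicate 2 (-1.24), and was -0.55 without WT HFD replicate 3, the library at 63.8 FPKM.

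Since Ednrb has values in all 12 libraries, its diet effect could be compared between the genotypes in 1 model over the 975 genes with such values. In that model the HFD change was 1.57 on the log2 scale in WT (SE 0.39) and 0.11 in TET2 KO (SE 0.38). Their difference was -1.46 (SE 0.54, adjusted p = 0.0349 over these genes by edgeR). It became 0.28 (SE 0.56) when 3 endothelial markers, selected by the same tables and described below, set the library sizes. Of the 975 genes, which have values in all 12 libraries only because at least 2 tables list them, 56.4% passed the same test, so the call is common among them. Ednrb is among them through both comparisons of the genotypes, with opposite differences that together make up the one tested. The test is therefore not independent of the selection. With 1 of the 12 libraries left out, the difference ranged from -2.04 to -1.01 and the adjusted p from 0.0229 to 0.107, under 0.05 in 4 of the 12 fits. It was -1.01 without WT HFD replicate 3, the library at 63.8 FPKM, the 1 fit in which the unadjusted p was no longer under 0.05. The same model gave TET2 KO against WT as 0.45 on chow (SE 0.38, adjusted p = 0.438), which did not pass, where 28.7% of the 975 genes passed. On HFD it gave -1.01 (SE 0.38, adjusted p = 0.0716), which passed at the unadjusted threshold, as 48.1% of the genes did. Both calls are the opposite of those made above with 6 libraries. On log2(FPKM + 1), HFD libraries exceeded chow libraries by 0.70 on average within genotypes, against an SD of 0.49 within groups, and an exact two-sided permutation test over 400 arrangements gave p = 0.07. Averaged over the diets, TET2 KO libraries differed from WT libraries by -0.29 (exact two-sided permutation p = 0.415).

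Nos3, the enzyme, had the smallest adjusted p of the 3 genes for HFD against chow in WT. Its level was 0.894, 1.11 and 1.502 FPKM in WT chow (162 to 242 reads) and 4.85, 4.70 and 2.75 FPKM in WT HFD (446 to 1138 reads). The diets did not overlap, and the change was 3.52-fold, or 1.82 on the log2 scale (SE 0.29, adjusted p = 0.0366). Leaving out any 1 library gave 1.65 to 2.04, and all 6 of those fits passed at the unadjusted threshold, while the adjusted p was under 0.05 in 1 of them (range 0.0147 to 0.143). In TET2 KO chow the level was 3.50, 1.47 and 1.30 FPKM (212 to 618 reads), with replicate 1 high and replicates 2 and 3 within the range of WT chow. The mean of 2.09 ± 1.23 FPKM stood against 1.17 ± 0.308 in WT chow (SD, n = 3 each). The log2 fold change was 0.84 (SE 0.41, adjusted p = 1) and did not pass the test. Without TET2 KO chow replicate 1 it was 0.23, and without TET2 KO chow replicate 3 it was 1.09 and passed.

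The members' calls can be set beside the same calls over all genes listed. For HFD against chow in WT, 3 of 3 rose, 2 of them with an adjusted p under 0.05, where 91.6% of the 7330 listed genes passed, 42.4% of them by rising and 49.2% by falling, and 18.7% passed after adjustment. The libraries of the diets were apart for Nos3 and Ednrb, as for 86.5% of the listed genes. Between the genotypes on chow, 1 of the 2 members listed passed, by rising. Of the 1298 genes listed there, 994 passed (76.6%), 30.6% rose and 46% fell, 0 had an adjusted p under 0.05 by edgeR (0%), and 74.7% had libraries apart. For TET2 KO against WT on HFD, 0 of 2 passed edgeR's test while both passed DESeq2's at the unadjusted p, the test by which the table lists genes. Of the 3939 genes listed there, 3241 passed edgeR's test (82.3%), 43.1% rose and 39.1% fell, 0 passed after adjustment (0%), and 74.7% had libraries apart. TET2 KO against WT on chow and HFD against chow in WT share the WT chow libraries, and the latter shares the WT HFD libraries with TET2 KO against WT on HFD, so a chance deviation in a shared group enters both.

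Of 18 endothelial marker genes, among them the junction genes Cdh5 and Cldn5, 17 were listed for HFD against chow in WT, and all 17 rose, with a median log2 fold change of 1.49 against -0.32 over all genes listed. Claudin 5 (Cldn5, the most abundant) rose by 1.29, VE-cadherin (Cdh5) by 1.58 and Pecam1, which encodes CD31 itself, by 1.19. The FPKM of the 17 markers summed to 379, 326 and 839 in WT chow and 1704, 1354 and 1041 in WT HFD. WT chow replicate 3, the library with high Edn1, had the highest marker sum of its group, and WT HFD replicate 3, the library with the highest Ednrb, had the lowest of its group. Between the genotypes on HFD, 16 of the 18 were listed, all lower, and 13 fell, with a median log2 fold change of -0.97 against 0.33 over all genes listed. Their summed FPKM was 1670, 1323 and 1025 in WT HFD and 934, 521 and 560 in TET2 KO HFD, and TET2 KO HFD replicate 1, the library with high Edn1 and Ednrb, again had the highest sum of its group. In bulk RNA, fewer endothelial cells among those collected and less of these RNAs per cell cannot be told apart.

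As a share of that marker sum, the 3 genes overlapped between the groups. Nos3 came to 0.236%, 0.342% and 0.179% of the sum in WT chow and 0.285%, 0.347% and 0.264% in WT HFD. Edn1 came to 1.79%, 1.95% and 2.42% in WT chow and 2.89%, 1.97% and 1.78% in WT HFD. Ednrb came to 3.52%, 3.80% and 1.92% in WT chow and 2.00%, 1.96% and 6.13% in WT HFD. For each gene the diets overlapped, and WT HFD replicate 3 stood out for Ednrb alone. In the libraries on HFD, Edn1 was 2.26 ± 0.608% of the sum of 16 markers in WT and 2.39 ± 0.283% in TET2 KO, and Ednrb 3.42 ± 2.43% and 2.92 ± 0.671% (SD, n = 3 each). When the summed counts of these markers replaced the size factors, an alternative added after the data were seen, the log2 fold changes for HFD against chow in WT were 0.32 for Nos3, 0.17 for Edn1 and 0.24 for Ednrb, and none passed. For TET2 KO against WT on HFD they were 0.01 for Edn1 and -0.34 for Ednrb. This scaling moved the median of all listed genes by -1.52 in the former comparison and by 0.95 in the latter. In the 12-library model, where only the markers Icam2, Sox18 and Emcn have values, the change of the Ednrb difference between diet effects to 0.28 came with a shift of 1.96 in the median difference of the 975 genes. Icam2 and Sox18 have these values through both comparisons of the genotypes, higher in TET2 KO on chow and lower on HFD, as Ednrb was. Scaling by them is therefore no independent check of the Ednrb difference.

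**Figure D2:**
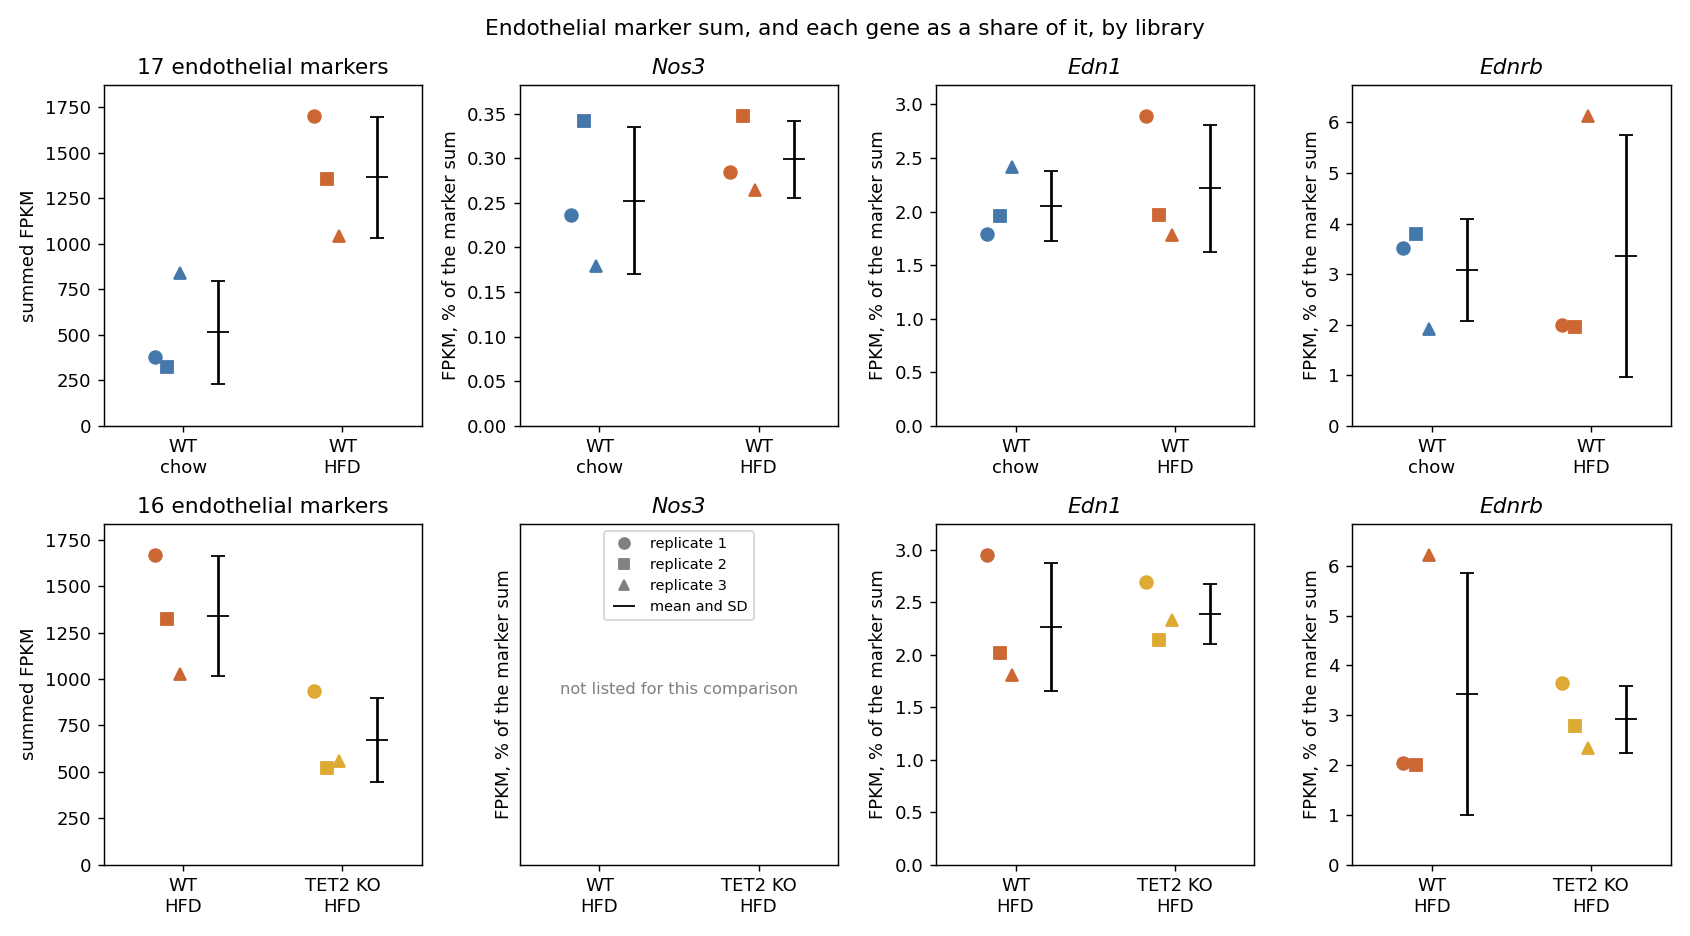
Summed FPKM of the endothelial markers (left column) and each gene's FPKM as a percent of that sum (other columns) by library, for WT chow against WT HFD with 17 markers (upper row) and WT HFD against TET2 KO HFD with 16 markers (lower row); marker shape gives the replicate, and the bar the mean and SD. The marker sum lies apart between the groups in both rows, from 326 to 839 in WT chow against 1041 to 1704 in WT HFD in the upper one, while each gene's share overlaps between the groups.

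The vessel types within the endothelium can be read from smaller lists. Of 11 aerocyte markers other than Ednrb, 8 were listed for HFD against chow in WT, all 8 higher and 5 of them risen, with a median log2 fold change of 0.77 that lies below the 1.58 of Ednrb. Among the most abundant, Prx rose by 1.07 and Emp2 by 1.04, and Fibin had a log2 fold change of 0.72 that did not pass. Of 9 arterial markers 7 were listed and all 7 rose, with a median of 1.90, and of 9 general capillary markers 7 were listed, 6 risen and 1 (Lpl) fallen, with a median of 1.60. In the comparison of the genotypes on HFD, 0 of the aerocyte markers were listed, 6 arterial markers were listed with 5 fallen (median -1.32), and 8 general capillary markers with 7 fallen (median -1.27). On chow, TET2 KO against WT listed 2 endothelial markers, Icam2 (0.71) and Sox18 (1.44), and both rose, and of the 2 arterial markers listed, Gja4 and Gja5, neither passed. Of the 11 aerocyte markers only Rprml (0.85) and Chst1 (0.63) were listed, and neither passed. Their summed level was 11.96, 11.8 and 12.5 FPKM in TET2 KO chow and 5.81, 5.12 and 11.5 FPKM in WT chow. The sums did not overlap, but WT chow replicate 3 came close to TET2 KO chow. Each of the 2 genes alone overlapped between the groups, unlike Ednrb. Of all genes listed in this comparison, 74.7% had libraries apart. TET2 KO chow replicate 1, the library with high Nos3, had 168 FPKM of Icam2 and Sox18 together against 78.3 and 87.2 in the other TET2 KO chow libraries and 44.8 to 80.5 in WT chow. The part of these vessel types in the members' changes was not tested.

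RNA of other cells was also present. The 6 lung epithelial markers listed for HFD against chow in WT summed to 4386, 5692 and 5887 FPKM in WT chow and 4464, 2294 and 4651 in WT HFD. In every one of these libraries this was more than the endothelial sum. The Clara cell secretoglobin Scgb1a1 was the most abundant, with a mean of 4198 FPKM against 243 FPKM for Sftpb, the next. The order of the 2 sums therefore rests largely on Scgb1a1. Of these 6, 2 rose and 2 fell. NK cell markers rose with the members, 8 of 8, with sums of 34.0 to 60.0 FPKM on chow and 103 to 171 on HFD and Gzma the most abundant, and the 2 neutrophil markers listed fell, with Retnlg the more abundant. The other lists had 3 of 10 T cell markers listed and risen, 5 of 10 monocyte and macrophage markers with 3 risen and 2 fallen, 2 of 5 platelet markers with 1 fallen, 2 of 7 fibroblast markers with 1 risen, 4 of 8 smooth muscle and pericyte markers with 1 risen and 2 fallen, 3 of 7 venous markers with 3 risen, 4 of 7 lymphatic markers with 3 risen, 1 of 5 mesothelial markers with none passing, and 0 of 8 B cell markers. In TET2 KO against WT on chow, 4 lung epithelial, 4 fibroblast and 4 mesothelial markers were listed and all fell, while 6 T cell markers were listed with 5 risen, and 2 NK cell, 2 monocyte and macrophage and 1 lymphatic marker rose. Between the genotypes on HFD, 2 epithelial markers were listed and both fell, Ager by 1.06 and Hopx by 0.73 on the log2 scale, with summed levels of 85.3, 73.3 and 70.3 FPKM in WT and 48.0, 28.8 and 44.1 FPKM in TET2 KO. The monocyte chemokine receptor gene Ccr2 fell by 1.05 on the log2 scale, the smooth muscle gene Cnn1 rose by 2.14 at a mean of 0.0475 FPKM, and 3 of 4 lymphatic and 1 of 1 venous markers listed fell. The 3 markers Ncr1 (-1.14), Mpo (1.12) and Msln (0.96) did not pass, and 0 T cell, B cell, platelet and fibroblast markers were listed. The part of all these cells in the members' changes was not tested.

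The remaining endothelin genes were few. Of 7 others, 4 were listed for HFD against chow in WT, with a median log2 fold change of 1.12. Edn3, which encodes endothelin-3, rose by 1.55 (SE 0.38) from a low level, with 41.6 ± 11.98 normalized counts on HFD against 14.1 ± 4.31 on chow (SD, n = 3 each). Mme, which encodes neprilysin, a peptidase that degrades endothelin-1, rose by 1.29 (SE 0.45), and Edn2, which encodes endothelin-2, fell by 2.46 (SE 0.87) at a mean of 0.208 FPKM. Ece1, which encodes the enzyme that releases endothelin-1, was strongly expressed at 44.5 FPKM, and its log2 fold change of 0.95 (SE 0.41) did not pass. The comparison of the genotypes on HFD listed 2 of the 7, and both fell, Edn3 by 1.30 and Ece1 by 0.75 on the log2 scale. The table for TET2 KO against WT on chow listed 0 of the 7.

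Of 31 genes of the nitric oxide system, 11 were listed for HFD against chow in WT, 9 rose and 1 fell, with a median log2 fold change of 1.28. Those with the largest increases were Cavin1 (1.71) and Cav1 (1.64), which build the caveolae where the synthase is held, Gchfr (1.47), the feedback regulator of its cofactor's synthesis, Nos2 (1.46), the inducible synthase, and Ddah2 (1.33), which degrades an inhibitor of the enzyme. Nos2 and Gchfr were weak transcripts, with means of 0.454 and 0.560 FPKM. The chaperone gene Hsp90aa1 fell by 0.50 on the log2 scale. On HFD, the table of TET2 KO against WT listed 7, of which 6 fell and 1 rose, with a median of -0.82. Cav1 fell by 0.99, Cavin1 by 0.84, Ddah2 by 0.83, Ddah1 by 0.82 and Nostrin, a trafficking partner of the synthase, by 0.76 on the log2 scale, and Slc7a1, an arginine transporter, rose by 0.40. TET2 KO against WT on chow listed 0 of the 31. The 20 genes not listed for HFD against chow in WT have no value in that comparison.

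Among 20 transcription factors and other regulators of endothelial vasoactive genes, 8 were listed for HFD against chow in WT, 7 rose and 1 fell, with a median log2 fold change of 0.71. Gata2, a factor known to activate Edn1 and Nos3, rose by 1.59 (SE 0.29, adjusted p = 0.0378), and Epas1, the hypoxia-inducible factor 2 alpha, by 1.39. Klf2, the flow-induced activator of Nos3, rose by 1.04, the AP-1 gene Jun by 0.86 and Mef2a by 0.57, while Mef2d fell by 0.65. In TET2 KO against WT on HFD, 6 were listed, 4 fell and 1 rose, with a median of -0.54. Gata2 fell by 0.87, Epas1 by 0.82, Jun by 0.62 and Klf6 by 0.33 on the log2 scale, and Mef2d rose by 0.79. On chow, Gata2 was the 1 gene of the list in the TET2 KO against WT table, with a log2 fold change of 0.94 (SE 0.44) that did not pass. Its level was 39.5 FPKM in TET2 KO chow replicate 1, the library with high Nos3, against 17.0 and 13.4 FPKM in the other two, and 10.4, 9.02 and 17.2 FPKM in WT chow.

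Of 49 genes of other vasoactive systems, 19 were listed for HFD against chow in WT, 14 rose and 5 fell, with a median log2 fold change of 0.98. Aplnr, the apelin receptor, rose by 3.00 (SE 0.43, adjusted p = 0.0357) and Gja4, which encodes connexin 37 of arterial gap junctions, by 2.93 (SE 0.33, adjusted p = 0.0357). Ramp2 (1.68) and Calcrl (1.47), the subunits of the adrenomedullin receptor, and Ace (1.63), which makes angiotensin II, rose as well. The genes that fell were Nppb (-2.65), Kcnn3 (-1.11), Tbxas1 (-1.04), Ptger2 (-0.77) and Ramp3 (-0.73). TET2 KO against WT on HFD listed 13, of which 10 fell and 1 rose, with a median of -0.88. The largest decreases were those of Aplnr (-1.91), Npr3 (-1.77), Gja4 (-1.46), Ramp2 (-1.25) and Ptgs1 (-1.19), and Ramp3 rose by 0.85. On chow, the table of TET2 KO against WT listed 8, where the potassium channel gene Kcnj2 (0.79) and Ptgs2 (0.57), which encodes cyclooxygenase 2, rose. Among those that fell was Agtr1a (-1.33), an angiotensin receptor gene, at a mean level of 0.0873 FPKM.

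Over the 4 pathway lists together, 107 genes without the 3 members, 42 were listed for HFD against chow in WT, of which 32 rose and 8 fell, with a median log2 fold change of 1.01 against -0.32 over all genes listed. In the comparison of the genotypes on HFD 28 were listed, of which 3 rose and 22 fell, with a median of -0.79 against 0.33. The latter count of 25 fell to 10 without TET2 KO HFD replicate 2 and to 9 without WT HFD replicate 1, and it was 16 without TET2 KO HFD replicate 3 or WT HFD replicate 2. On chow 9 were listed for TET2 KO against WT, of which 2 rose and 2 fell, and with TMM scaling 6 rose and 2 fell. That count of 4 was 2, with none risen, without WT chow replicate 1 or replicate 2, and 8 without WT chow replicate 3. With the endothelial marker sum as library size, 2 rose and 11 fell for HFD against chow in WT, and 3 rose and 1 fell for TET2 KO against WT on HFD.

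**Figure D3:**
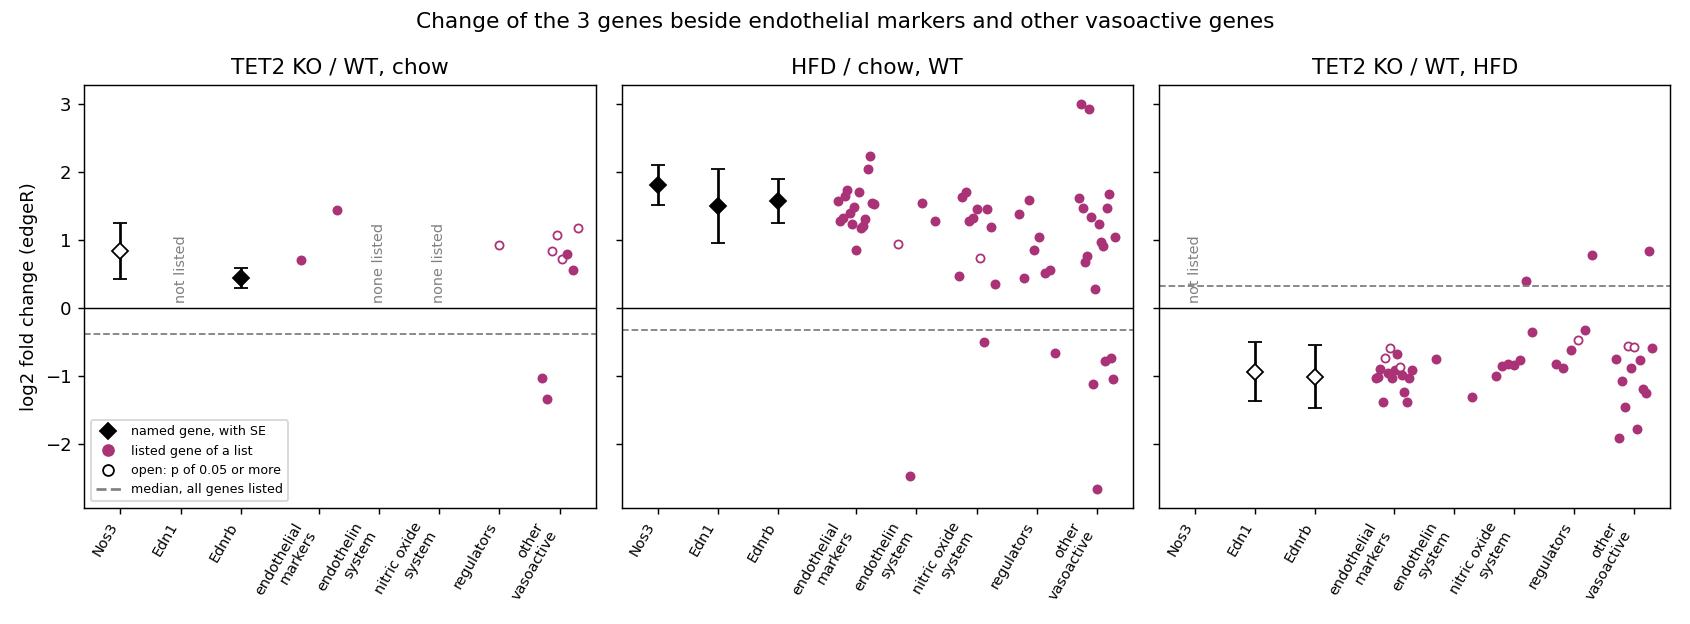
edgeR log2 fold changes (y axis) of the 3 genes with their SE (diamonds) and of the listed genes of the endothelial marker list and the 4 pathway lists (circles) in 3 comparisons, where open symbols did not pass the unadjusted threshold and the dashed line is the median of all genes listed. The members lie among the endothelial markers in the middle and right panels, at 1.51 to 1.82 beside a marker median of 1.49 and at -1.003 to -0.93 beside a marker median of -0.97.

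The genes whose pattern over the libraries was most like that of a member were found by Pearson's r of log2(FPKM + 1). For Nos3, over 9 libraries and 955 genes with a mean of at least 1 FPKM, they were Pkn3 (r = 0.984), S100a16 (0.983) and Podxl (0.983). For Edn1, over its 9 libraries and 2358 genes, they were Lama5 (0.991), Rasip1 (0.990) and Arap3 (0.989). For Ednrb, over 12 libraries and 703 genes, they were Rarg (0.913), Tmem246 (0.896) and Icam2 (0.874). The members were compared over unlike sets of libraries and genes, so their r values cannot be ranked against each other. These are descriptions over few libraries that share groups and depth, among genes already selected for a difference.

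**Figure D4:**
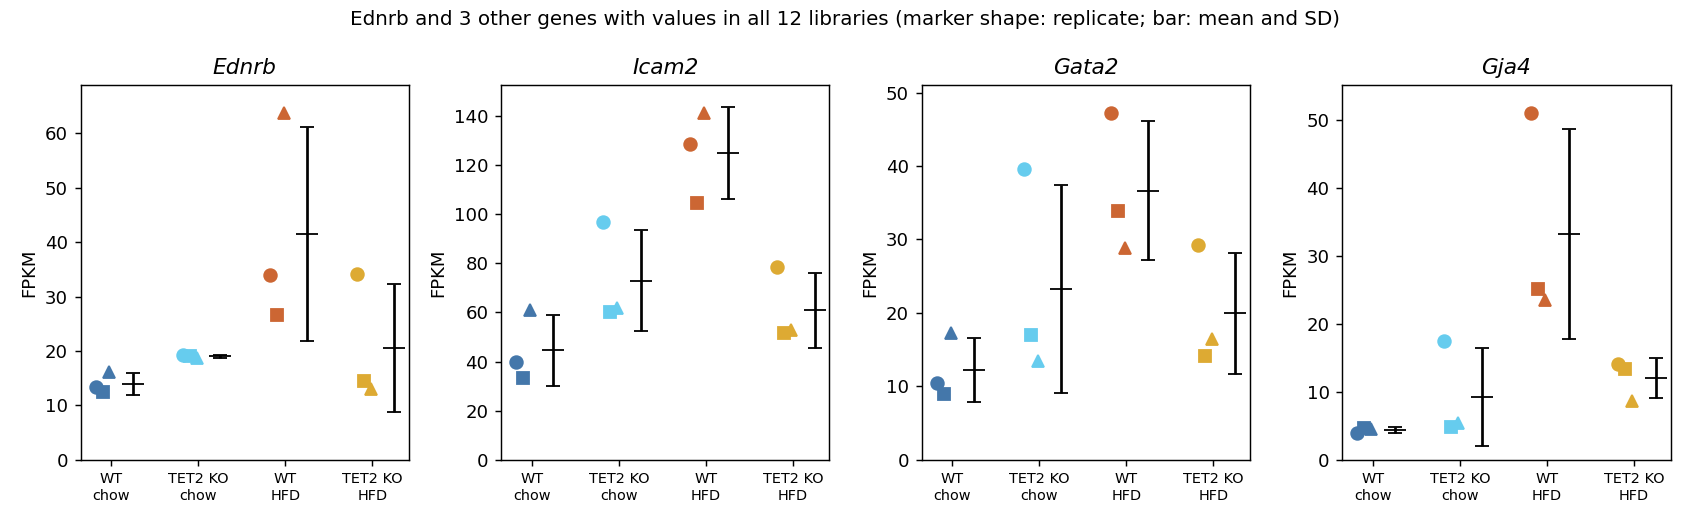
FPKM (y axis) of Ednrb, Icam2, Gata2 and Gja4 in all 12 libraries by group (x axis), where marker shape gives the replicate and the bar the mean and SD. All 4 genes are highest in WT HFD on average, and TET2 KO HFD replicate 1 is the highest of its group for each, with 34.1 FPKM of Ednrb and 29.3 FPKM of Gata2.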

How the data were processed

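Paired-end poly(A) RNA reads were aligned to mm10 with HISAT2, counted per gene with featureCounts and compared with DESeq2 by the authors; versions, annotation release and strand setting are not given in the sources used here. The authors deposited raw counts, a normalized signal (counts divided by a size factor per library) and FPKM values. Their deposited log2 fold changes were not used, and their p-values served only to recover the number of genes adjusted in each table (18463 for TET2 KO against WT on chow, 23768 for HFD against chow in WT, 18703 for TET2 KO against WT on HFD and 19511 for HFD against chow in TET2 KO).

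Listed counts were tested per comparison with edgeR 4.0.16 (R 4.3.3), two-sided, on 3 libraries per group and with the deposited size factors. The model over 12 libraries used library totals, recovered from counts, gene lengths and FPKM. Alternatives were DESeq2 1.42.0, TMM, library totals, a mean normalized count of at least 10, limma-trend (limma 3.58.1) on log2(FPKM + 1) or log2(FPKM + 0.1), a replicate block and leaving out each library. The scripts were tested on simulated data. Each library is 1 mouse, and libraries of a group differed beyond sampling noise. Promoter sequences came from RefSeq (2 of 3 members matched).

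The members, the 4 pathway lists and the 16 marker lists were chosen with earlier results of these data known. Named are the members, the called endothelin genes, up to 5 higher and 5 lower called genes of each other pathway list, up to 3 of the most abundant listed genes of a marker list and the 3 genes most like each member. Tet2 and the antisense partners were named as checks, and other values of genes that did not pass were chosen after they were seen. The value of 1 gene that the rule names is not reported here.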

Additional observations from a re-analysis of the deposited data

Results flagged for a closer look

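The diet effect on Ednrb was compared between the genotypes by a test of the difference itself, among genes selected for differences. The log2 change on HFD was 1.57 in WT and 0.11 in TET2 KO, a difference of -1.46 (SE 0.54). The adjusted p by edgeR, over the 975 genes of the model and not over those the authors adjusted, was 0.0349. With 1 library left out it was under 0.05 in 4 of 12 fits, with differences from -2.04 to -1.01. With the sum of 3 endothelial markers as library size the difference was 0.28 (SE 0.56). Between the genotypes on HFD, these markers had log2 fold changes of -1.03 (Icam2), -1.38 (Sox18) and -0.74 (Emcn, which did not pass). On chow, Icam2 (0.71) and Sox18 (1.44) were higher in TET2 KO. Both entered the model through the same genotype comparisons as Ednrb, so this scaling is no independent check. The genes of the model were already selected for a difference. Ednrb entered it through the tables of both genotype comparisons, higher in TET2 KO on chow and lower on HFD. Those differences together make up the one tested, so the test is not independent of the selection. Of the 975 genes in the same model, 550 had an unadjusted p under 0.05. Single outlying libraries were not tested in groups of 3.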

How the results depend on the processing

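Over the results for the 3 genes, 141 alternative values were computed, of which 135 were planned. All 135 kept the direction, and 115 kept both direction and side of the threshold. The cause of the changes below was not tested. For TET2 KO against WT on HFD, Edn1 and Ednrb passed with TMM (log2 fold changes -1.02 and -1.13) and with the replicate number as a block (-0.91 and -1.04). Leaving out each library gave -1.38 to -0.45 for Edn1 and -1.59 to -0.55 for Ednrb. They also passed with DESeq2 (-0.93 and -1.004), as Nos3 did for TET2 KO against WT on chow (0.84), but the tables list genes by that same test, so these passes repeat the selection. Between the genotypes on chow, leaving out each library gave 0.23 to 1.09 for Nos3 and 0.36 to 0.56 for Ednrb. For HFD against chow in WT, Edn1 did not pass with the replicate block (1.64), and leaving out each library gave 1.03 to 2.27. The Ednrb difference between diet effects ranged from -2.04 to -1.01 with a library left out, and the Ednrb diet difference within genotypes from 0.49 to 0.83, with an exact permutation p of 0.035 without TET2 KO HFD replicate 2 or 3.

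Scaling by the endothelial marker sum, chosen after the data were seen, turned the Edn1 change between the genotypes on HFD to 0.011 and the Ednrb difference between diet effects to 0.28. The last of these rests on 3 markers, which the same tables selected, and the median difference of the 975 genes moved by 1.96 with it. For HFD against chow in WT it left 0.32 for Nos3, 0.17 for Edn1 and 0.24 for Ednrb, none of which passed, and 13 vasoactive genes called in place of 40. Between the genotypes on HFD it left 4 called in place of 25. Of the comparisons of 2 groups, those with under 10 markers listed were not scaled this way.

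The count of other vasoactive genes called for TET2 KO against WT on chow was 4, and 7 with DESeq2, 8 with TMM and 2 to 8 with a library left out. For HFD against chow in TET2 KO it was 5, and 9 with DESeq2 and 3 to 6 with a library left out, the lowest without TET2 KO HFD replicate 1 or TET2 KO chow replicate 2. With a library left out it was 9 to 22 for TET2 KO against WT on HFD.

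The replicate numbers do not pair the mice: deviations of libraries with the same number correlated between -0.1 and 0.18, and not every library correlated best with its own number. The block moved no other result of the 3 genes across the unadjusted threshold, while the adjusted p for HFD against chow in WT became 0.103 for Nos3 and 0.0912 for Ednrb. Comparisons that do not list a gene gave no value for it under any alternative. The members had at least 162 reads in every library with a value.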

Other observations

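HFD against chow in TET2 KO listed none of the 3 genes and 9 of the 107 other vasoactive genes, of which 2 rose and 3 fell, among 1628 genes of which 77% passed the test, 29.3% by rising and 47.7% by falling. Nos2, the inducible nitric oxide synthase, rose by 0.68 on the log2 scale at a mean of 0.355 FPKM, and Smad3, a mediator of TGF-beta signalling, rose by 0.77. The bradykinin receptor gene Bdkrb2 fell by 1.32, the potassium channel gene Kcnn3 by 1.23 and the prostaglandin receptor gene Ptger2 by 0.79. Of the 18 endothelial markers only Emcn was listed, and it rose by 0.98. Among the markers of vessel types, the venous marker Vcam1 rose by 1.19. The general capillary marker Lpl fell by 0.72 and the lymphatic marker Prox1 by 0.63. All 4 mesothelial markers listed rose, 3 of 4 fibroblast markers listed rose, 3 of 3 T cell markers listed fell, and 3 of 4 monocyte and macrophage markers listed fell. TMM scaling moved the median of all genes listed here by 0.25, and 4 of the vasoactive genes then rose and 3 fell.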
